A study of Arabidopsis thaliana with 12 samples.

Results

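The response of wild-type *Arabidopsis thaliana* seedlings to 44°C heat stress was described across gene functions, from the 6 WT libraries of a 12-library RNA sequencing series. The members are all 26891 gene rows of the deposited count table, read in the 3 WT 44°C columns and the 3 WT 22°C columns, and 21975 of these genes held enough reads to be tested. The study asked how the blue-light receptor CRY1 shapes thermotolerance, and its other 6 libraries are *cry1* mutant seedlings, which entered the estimate of replicate spread. WT 44°C seedlings were of the Columbia background, 8 days old, grown in continuous light for 7 days and in blue light of 100 µmol m−2 s−1 for 1 day, and then held at 44°C for 2 h. WT 22°C seedlings shared the ecotype, age and light and stayed at 22°C, so every library in the comparison carries the blue-light treatment. The methods of the study give fewer days of continuous light than the labels, and the label values are used here. Whole seedlings were harvested as 3 independent biological replicates per group.

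Heat unfolds proteins, and plant cells answer through heat-shock factors (HSFs), transcription factors that bind repeated heat-shock elements in promoters and switch on chaperone genes. Small heat-shock proteins hold unfolded proteins, HSP70 and HSP90 refold them, and the HSP101 disaggregase pulls aggregates apart. In leaves, heat also disturbs photosynthesis, growth, RNA splicing and many branches of metabolism, which rest on large sets of nuclear genes that can be followed in one table.

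The WT libraries held between 10539271 and 14295796 gene counts, and replicate libraries of a group correlated at 0.989 to 0.991 on the log2 scale. The 44°C libraries were dominated by fewer genes: the 100 genes with most counts took 39.5% ± 1.397 of the counts at 44°C, against 26.7% ± 0.175 at 22°C (SD, n = 3 each). Counts scaled by library totals, given as CPM, placed the median gene at −0.91 on the log2 scale, whereas median-ratio scaling placed it at −0.10. Both readings are given for the gene groups, because seedlings with less RNA of most genes and libraries crowded by a few genes cannot be told apart in counts alone. The labels held: *HSP101* (AT1G74310) had 15195, 15677 and 15495 CPM at 44°C, against 12.2, 18.7 and 11.6 CPM at 22°C, and *CRY1* (AT4G08920) was present in every WT library, at 174, 151 and 166 CPM at 44°C, against 226, 201 and 212 CPM at 22°C. In the genes given library by library below, every 44°C library lay on one side of every 22°C library unless an overlap is stated. This was common: of all genes tested, 16.1% had every 44°C library above every 22°C library, and 62.6% the reverse.

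With scaling by library totals, 1675 genes were at least 2-fold higher at 44°C (7.62% of the genes tested) and 9909 were at least 2-fold lower (45.1%), at an adjusted p under 0.05 in edgeR's quasi-likelihood test. With median-ratio scaling, 4136 genes were higher (18.8%) and 5422 lower (24.7%), by the same rule. Higher genes thus made up 14.5% of all calls with library totals and 43.3% with median-ratio scaling. Median-ratio scaling moved log2 values upward against library totals, so falls could lose their call under it but rises hardly could. Among the calls made with library totals, 175 genes were at least 32-fold higher and 520 at least 32-fold lower. Below, "rose" and "fell" are used of genes that passed this rule with library totals, log2 values are 44°C over 22°C with library totals unless stated, and their errors are standard errors from the fit. In whole seedlings a lower transcript level can stand for fewer cells of a type or for less RNA per cell, and these cannot be told apart here.

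Chaperones filled much of the heat-stressed transcriptome. The 80 genes of the chaperone and co-chaperone lists outside the endoplasmic reticulum (ER) took 16.9%, 18.21% and 18.1% of the counts at 44°C, against 1.22%, 1.27% and 1.24% at 22°C. The 102 genes of the photosynthesis lists moved the other way, with 8.29%, 9.18% and 8.66% of the counts at 44°C, against 18.4%, 18.3% and 18.6% at 22°C. The 2 groups of libraries did not overlap in either share.

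**Figure D1:**
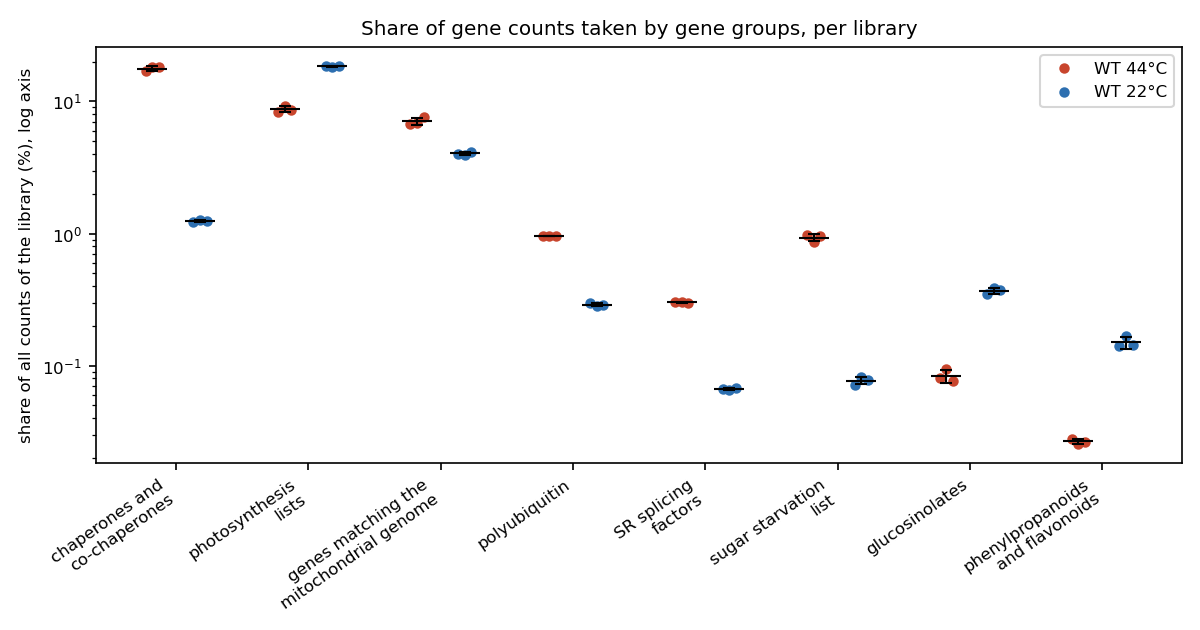
Share of all gene counts (%, log axis) taken by 8 gene groups in each WT library, 44°C left of 22°C; points are libraries, bars are the mean ± SD of 3. Chaperones reach 17.74% of the counts at 44°C and 1.24% at 22°C, and the photosynthesis lists 8.71% and 18.4%.

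Of 16 small HSP genes, 15 rose, with a median log2 of 12.04. All of these were also higher with median-ratio scaling, which moves values upward and so does not test rises. *HSP17.8* (AT1G07400), a cytosolic small HSP, had 8055, 9298 and 9248 CPM at 44°C, against 1.05, 2.94 and 1.502 CPM at 22°C, a log2 difference of 12.20 ± 0.20 (adjusted p = 1.32e-18). *HSP23.6* (AT4G25200), which the annotation names as localized to mitochondria, had 2040.1, 2433 and 2185 CPM at 44°C, against 0, 0.0700 and 0 CPM at 22°C. It had 1 count over the 22°C libraries, so the ratio between the groups is 87671 with a 95% counting interval of 15735 to 3462870. *HSP15.4* was the exception, at 6.45, 7.60 and 9.16 CPM at 44°C, against 16.7, 22.7 and 20.6 CPM at 22°C (log2 −1.37 ± 0.23, adjusted p = 5.80e-05), and it was not called with median-ratio scaling.

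Of 14 cytosolic HSP70, HSP90 and HSP100 genes, 13 rose and none fell under either scaling, with a median of 3.91, *HSP90.4* not passing at log2 0.17. *HSP70B* reached 10978, 12828 and 12592 CPM at 44°C, against 5.73, 5.88 and 5.45 CPM at 22°C. Members of these families are close in sequence, so reads may be split among them with error. Co-chaperones rose in 15 of 19 cases (16 with median-ratio scaling, median 3.24), among them *HOP3*, a bridge between HSP70 and HSP90, at 3089.7, 2949 and 2855 CPM at 44°C, against 4.19, 5.67 and 6.48 CPM at 22°C.

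Chaperones of plastids and mitochondria divided: 9 of 22 rose and 4 fell (11 and 2 with median-ratio scaling). The mitochondrial HSP70 *mtHSC70-2* had 4675, 4811 and 4734 CPM at 44°C, against 71.8, 82.1 and 75.7 CPM at 22°C, and the disaggregase *CLPB4* 862, 791 and 799 CPM at 44°C, against 14.04, 16.5 and 17.2 CPM at 22°C. In contrast, the chaperonin subunit *CPN60B4* had 1.14, 1.25 and 0.654 CPM at 44°C, against 21.1, 21.3 and 26.7 CPM at 22°C (log2 −4.48 ± 0.22, adjusted p = 1.06e-13), and *CPN60B1*, a subunit of the plastid chaperonin that folds Rubisco, had 70.3, 76.5 and 61.4 CPM at 44°C, against 429, 487 and 538 CPM at 22°C. Of these 4 genes, none changed direction or lost its call with median-ratio scaling.

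The cytosolic chaperonin CCT, which folds tubulin and actin, did not follow the HSPs: none of its 9 subunit genes passed with library totals, although 4 were higher with median-ratio scaling. *CCT3* had 235, 219.6 and 248 CPM at 44°C, against 178, 169 and 185 CPM at 22°C. ER folding genes lay close to the shares of all genes: 10 of 23 fell (43.5%, against 45.1% of all genes) and 2 rose (4 and 4 with median-ratio scaling). *ERDJ3A*, an ER co-chaperone, reached 332, 278 and 318 CPM at 44°C, against 3.71, 4.48 and 3.87 CPM at 22°C. The calcium-binding lectin chaperone *CRT1* had 23.3, 22.1 and 19.3 CPM at 44°C, against 155, 161 and 185 CPM at 22°C, and *IRE1B*, a sensor of unfolded proteins in the ER, 2.75, 2.67 and 2.34 CPM at 44°C, against 24.8, 24.8 and 21.9 CPM at 22°C. Both fell under either scaling.

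The HSF genes themselves were mixed. Of 20 tested, 9 rose and 4 fell (10 and 1 with median-ratio scaling), and the list spanned log2 −2.65 to 11.12. *HSFA2*, the amplifier of the heat response, had 2793, 2991 and 2870.4 CPM at 44°C, against 1.13, 2.31 and 0.316 CPM at 22°C, and *HSFA7B* had 209.6, 203 and 187 CPM at 44°C, against 0.0807, 0.0700 and 0.237 CPM at 22°C. The falling members included *HSFC1*, at 10.7, 13.2 and 7.01 CPM at 44°C, against 25.3, 29.5 and 31.3 CPM at 22°C, and *HSFA5*, at 5.12, 4.09 and 4.21 CPM at 44°C, against 15.41, 14.1 and 14.9 CPM at 22°C, both not called with median-ratio scaling.

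Heat-shock element letters stood in a larger share of promoters of strongly rising genes than of all promoters. A window of 300 bases upstream of each annotated gene start was searched on both strands in the TAIR10.1 assembly for GAANNTTC, and for this motif with a further GAA at a distance of 2 bases, which contains the shorter one. The shorter motif stood in 30 of 137 promoters of protein-coding genes that rose at least 32-fold (21.9%), against 11.3% of all 20836 promoters of protein-coding genes tested. The longer motif stood in 10 of these 137 (7.30%), in 1.64% of those that rose 8-fold to 32-fold, in 0.137% of those that fell at least 8-fold, and in 0.514% of all. TTCNNGAA, the same letters in the other phase, was looked up after the first results were seen and stood in 21.9% and 9.27% of the same sets. CACGTG, the core bound by many basic helix-loop-helix and basic leucine zipper factors, stood in 15.3% of promoters of genes that rose 8-fold to 32-fold and in 12.4% of those that rose more, against 8.14% of all. These shares describe letters, not bound sites.

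The 100 bases before the annotated gene start are shown for 4 rising genes that hold the longer motif there and for *HSP17.8*, which holds neither GAANNTTC nor TTCNNGAA in its 300-base window. Both motifs are in capitals, and the sequences are from RefSeq's TAIR10.1 assembly.
HSP17.4, chr3:16984868-16984967, minus strand: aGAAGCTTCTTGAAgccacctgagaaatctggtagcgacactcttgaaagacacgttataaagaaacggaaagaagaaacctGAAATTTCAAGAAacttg
HSP17.6C, chr1:19980199-19980298, plus strand: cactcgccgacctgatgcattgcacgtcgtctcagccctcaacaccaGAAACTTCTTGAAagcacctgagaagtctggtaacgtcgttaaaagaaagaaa
HSFA2, chr2:11135524-11135623, plus strand: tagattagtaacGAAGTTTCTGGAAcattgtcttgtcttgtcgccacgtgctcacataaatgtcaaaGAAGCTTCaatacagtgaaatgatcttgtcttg
GOLS1, chr2:19370479-19370578, minus strand: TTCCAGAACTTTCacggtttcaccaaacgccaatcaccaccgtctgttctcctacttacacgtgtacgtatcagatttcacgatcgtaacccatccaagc
HSP17.8, chr1:2274826-2274925, plus strand: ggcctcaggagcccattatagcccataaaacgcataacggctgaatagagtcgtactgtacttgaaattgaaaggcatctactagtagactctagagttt
The capitals begin 99 bases before the gene start in *HSP17.4*, which holds the longer motif a second time nearer the start, 53 bases before it in *HSP17.6C*, 88 in *HSFA2* and 100 in *GOLS1*, where the longer motif reads on the opposite strand. The small HSP genes *HSP17.4* and *HSP17.6C* had 2279 ± 103 CPM at 44°C, against 0.273 ± 0.134 CPM at 22°C, and 4982 ± 362 CPM at 44°C, against 0.199 ± 0.105 CPM at 22°C (SD, n = 3 each). Genes with the motif and *HSP17.8* without it were thus both above 32-fold higher.

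In protein turnover, most polyubiquitin genes rose, while few proteasome genes passed the test. Of 5 polyubiquitin genes, which code for repeats of the tag that marks proteins for destruction, 4 rose, and all 5 were higher with median-ratio scaling. *UBQ10* had 6466, 6272 and 6372 CPM at 44°C, against 1718, 1606 and 1638 CPM at 22°C (log2 1.95 ± 0.07, adjusted p = 9.52e-16), and *UBQ3* 1729.9, 1615 and 1687 CPM at 44°C, against 464, 445 and 413 CPM at 22°C. The 45 genes of the 26S proteasome lay close together around a median of 0.03, with 1 that rose, 2 that fell and 42 not called. With median-ratio scaling 15 were higher and none lower. *RPN6*, a lid subunit, was the riser, at 228, 236 and 232 CPM at 44°C, against 100.9, 95.9 and 96.7 CPM at 22°C. Autophagy genes rose in 4 of 16 cases and fell in 2 (9 and 0 with median-ratio scaling), led by *ATG8B* and *ATG8E*, which code for the ubiquitin-like coat of autophagosomes, at 33.0 against 10.1 CPM and 84.8 against 27.5 CPM, 44°C against 22°C. *ATG6* and *ATG7* were the 2 that fell, and the call of *ATG6* was lost without 44°C replicate 3 (log2 −0.95) and without 22°C replicate 1 (log2 −0.97).

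Translation genes showed small shifts. None of 31 cytosolic ribosomal protein genes rose and 8 fell (25.8%), a smaller share than the 45.1% of all genes. Their median was −0.48, against −0.91 for all genes, and with median-ratio scaling 5 were higher and 2 lower. *RPL27AC* and *RPL24A* fell under both scalings, at 63.6, 61.9 and 53.8 CPM at 44°C, against 266, 258 and 282 CPM at 22°C and at 35.4, 35.1 and 30.0 CPM at 44°C, against 139, 124 and 157 CPM at 22°C. Plastid ribosomal protein genes had a lower median, −1.15, with 14 of 25 lower (56.0%). Under median-ratio scaling 1 of them was lower and 2 were higher. Of 19 ribosome biogenesis genes 6 fell (31.6%), and with median-ratio scaling none fell and 3 were higher, so their direction depends on the scaling. Among 17 translation factors 3 fell (1, with 6 higher, under median-ratio scaling), of which *EIF4G*, the scaffold of cap-dependent initiation, had 30.1, 37.3 and 27.8 CPM at 44°C, against 125, 139 and 136 CPM at 22°C and stayed lower with median-ratio scaling.

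Splicing factors rose more often than they fell. Of 20 genes for serine/arginine-rich (SR) splicing factors, 10 rose and 1 fell, and with median-ratio scaling 17 were higher and none lower. *SR45A* had 1300.4, 1332 and 1273 CPM at 44°C, against 28.4, 29.9 and 25.5 CPM at 22°C (log2 5.54 ± 0.12, adjusted p = 1.93e-19), and *SR30* had 236, 241 and 237 CPM at 44°C, against 28.5, 34.0 and 34.3 CPM at 22°C. Together the list took 0.302% ± 0.00359 of the counts at 44°C, against 0.0668% ± 0.00114 at 22°C. The single falling member, *SCL28*, had 0.296 ± 0.116 CPM at 44°C, against 0.891 ± 0.195 CPM at 22°C, and its call was lost without 44°C replicate 3 and without 22°C replicate 3.

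Photosynthesis genes fell broadly but not evenly. Of 50 antenna, photosystem and electron transport genes, 35 fell and 1 rose (19 and 3 with median-ratio scaling). *PSBS*, needed for the dissipation of excess light, had 41.3, 51.9 and 32.1 CPM at 44°C, against 1663, 1719 and 1742 CPM at 22°C, a log2 difference of −5.35 ± 0.13 (adjusted p = 1.60e-17). *LHCA6*, a minor antenna protein of photosystem I, had 3.13, 4.85 and 3.46 CPM at 44°C, against 113, 126 and 139 CPM at 22°C. The gene with most counts at 22°C among nuclear photosynthesis genes, the antenna gene *LHCB1.3*, had 16806, 18668 and 18708 CPM at 44°C, against 14344, 13545 and 13513 CPM at 22°C, a difference under 2-fold, and was higher only with median-ratio scaling. *LHCB1.4* rose, at 1809, 2096 and 2515 CPM at 44°C, against 602, 482 and 555 CPM at 22°C, whereas *LHCB1.1* fell, at 1509.6, 1801 and 1302 CPM at 44°C, against 4081, 4169 and 3983 CPM at 22°C, a call lost with median-ratio scaling. Since *LHCB1* copies are nearly identical, reads may have been assigned among them with error. *PSBR*, a subunit of photosystem II, had 4969, 6154 and 5262 CPM at 44°C, against 7113, 6858 and 7028 CPM at 22°C, and its direction turned with the scaling (log2 −0.36 and 0.46).

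The carbon-fixing side fell more evenly. Of 21 Calvin cycle genes, 18 fell and none rose, with a median of −2.45, and 17 remained lower with median-ratio scaling. The small subunit genes of Rubisco, the CO2-fixing enzyme, differed in size of fall. *RBCS1B* had 51.8, 74.9 and 61.6 CPM at 44°C, against 2239, 2511 and 2258 CPM at 22°C (log2 −5.22 ± 0.12, adjusted p = 3.12e-18), and *RBCS1A*, the most abundant of them, 2637, 2933 and 2686 CPM at 44°C, against 11285, 12290.3 and 11356 CPM at 22°C (log2 −2.08 ± 0.08). *RBCS3B* lay between, with 447, 541 and 457 CPM at 44°C, against 6719, 7461 and 7411 CPM at 22°C. These genes are near-identical copies, so the split among them is uncertain, but each fell. *RCA*, which codes for the heat-sensitive Rubisco activase, had 1917, 2340.4 and 1836 CPM at 44°C, against 10701, 9952 and 11002 CPM at 22°C. The 3 members not called were *TPI*, *GAPA1* and *CP12-1*, with log2 values of −0.90, −0.78 and −0.23.

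Photorespiration genes fell in 9 of 14 cases (7, with 1 higher, under median-ratio scaling). The glycine decarboxylase subunit *GLDP1* had 51.9, 68.5 and 61.1 CPM at 44°C, against 1287, 1398 and 1546 CPM at 22°C, and *GLU1*, the glutamate synthase that takes up the ammonia released, had 188, 218 and 159 CPM at 44°C, against 2539, 2777 and 2843 CPM at 22°C. Chlorophyll synthesis genes fell in 11 of 17 (6 with median-ratio scaling), with *DVR* at 6.64, 5.01 and 4.77 CPM at 44°C, against 104, 111 and 113 CPM at 22°C. *PORA*, a protochlorophyllide reductase best known from dark-grown seedlings, was the only one that rose, at 7.97, 7.69 and 4.3002 CPM at 44°C, against 0.403, 0.210 and 0.553 CPM at 22°C, and without 22°C replicate 2 its log2 was 3.78 with an adjusted p of 0.0581, so that its call was lost.

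**Figure D2:**
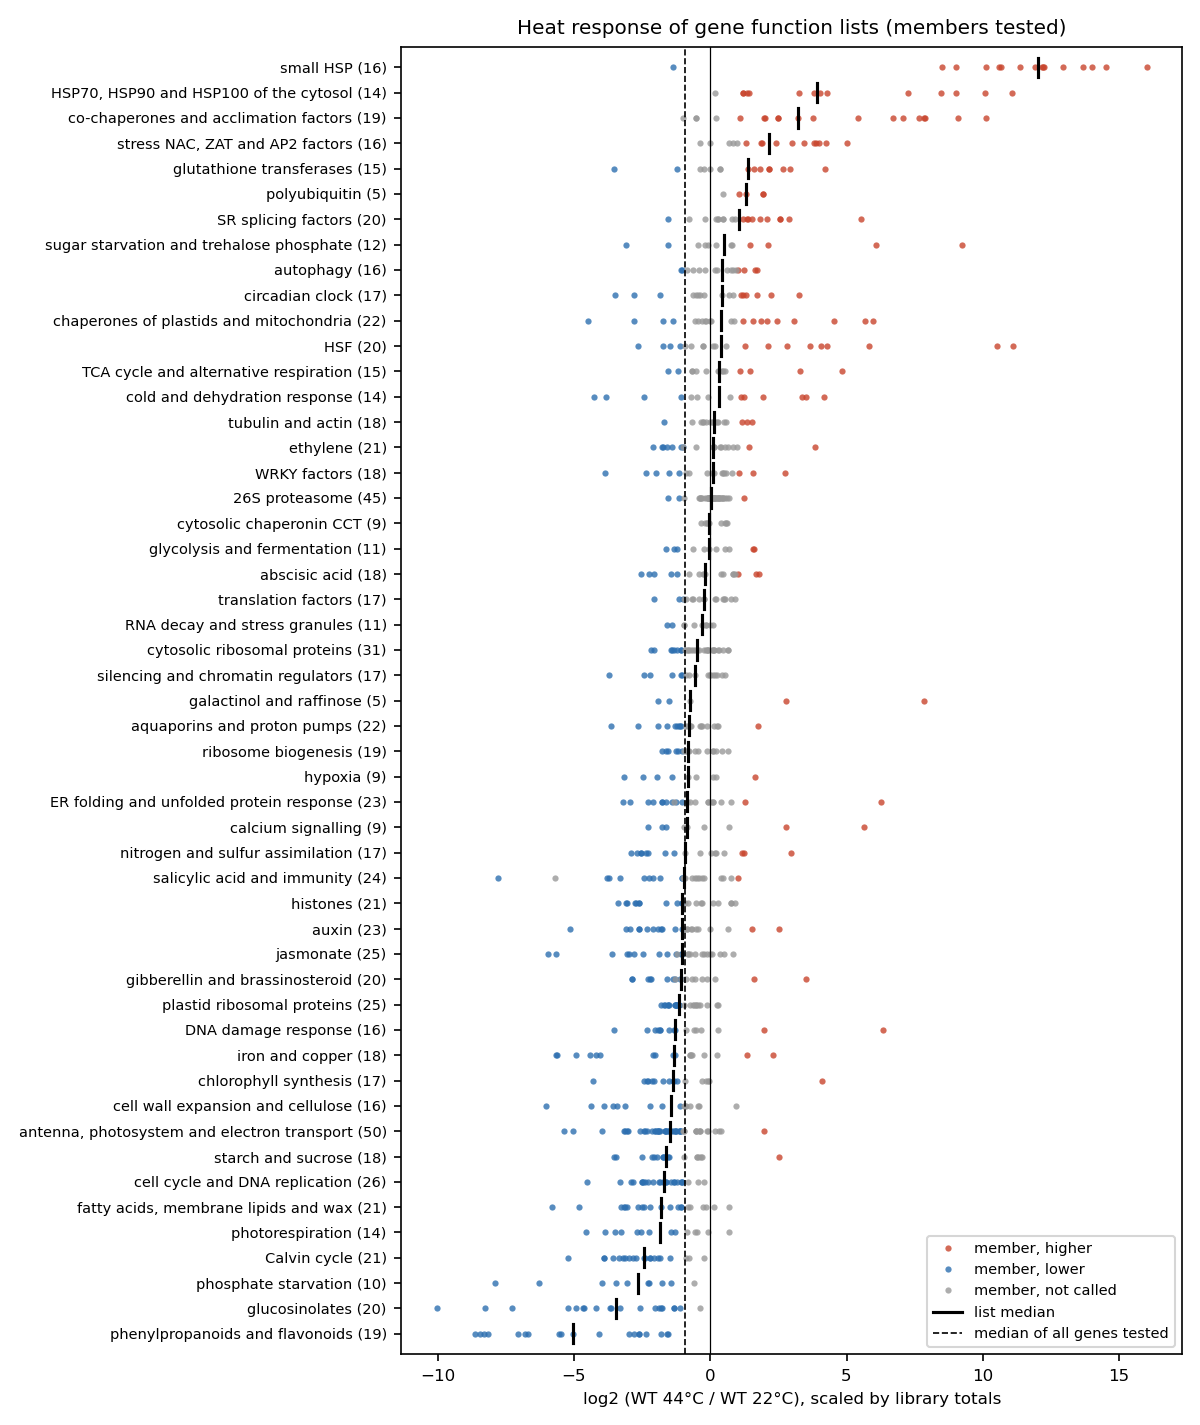
Log2 difference (WT 44°C over WT 22°C, library totals) of each member of 51 gene function lists, 1 row per list with the number tested, ordered by list median. Small HSPs stand at the top with a median of 12.04, phenylpropanoids and flavonoids at the bottom with −5.03 from fitted values (−3.22 with members at 0 set to their bound, above the glucosinolates at −3.46), and the dashed line marks the median of all genes, −0.91.

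Starch and sucrose genes fell in 11 of 18 cases and rose in 1 (6 and 1 with median-ratio scaling). The starch synthesis genes *GBSS1*, at 20.02, 24.6 and 16.5 CPM at 44°C, against 246, 229.6 and 231 CPM at 22°C, and *ADG1*, at 29.1, 32.6 and 29.6 CPM at 44°C, against 318, 359 and 334 CPM at 22°C, fell. The riser was *BAM1*, a starch-degrading beta-amylase, with 758, 851 and 655 CPM at 44°C, against 136, 139 and 116 CPM at 22°C (log2 2.54 ± 0.10, adjusted p = 1.99e-15). Galactinol synthases, which start the raffinose sugars known as osmoprotectants, diverged by copy, 2 of the 5 genes of their list rising and 2 falling (2 and 1 with median-ratio scaling). *GOLS1* had 2865, 2836 and 2862 CPM at 44°C, against 11.6, 13.3 and 12.3 CPM at 22°C, and *GOLS2* 123, 159 and 115 CPM at 44°C, against 21.9, 19.0 and 17.2 CPM at 22°C, whereas *GOLS4* was lower, at 1.52, 2.92 and 0.841 CPM at 44°C, against 3.63, 6.23 and 5.61 CPM at 22°C, a call lost with median-ratio scaling.

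Transcripts known to mark low sugar were among the strongest rises. Of 12 genes of the sugar starvation and trehalose phosphate list, 4 rose and 2 fell (7 and 1 with median-ratio scaling). *ASN1*, an asparagine synthetase induced in darkness and starvation, had 3618, 3065 and 3314 CPM at 44°C, against 4.11, 4.69 and 7.83 CPM at 22°C (log2 9.23 ± 0.18, adjusted p = 7.31e-18). *SEN1*, another dark-inducible gene, had 4301, 4016 and 4681 CPM at 44°C, against 66.2, 63.4 and 64.2 CPM at 22°C. *BZIP11*, a sucrose-controlled transcription factor, fell, at 0.664, 1.92 and 1.03 CPM at 44°C, against 8.79, 11.96 and 11.1 CPM at 22°C. Central respiration changed less: of 11 glycolysis and fermentation genes 2 rose and 3 fell (5 and 0 with median-ratio scaling), and of 15 genes of the citric acid cycle and alternative respiration 4 rose and 2 fell (9 and 0). *PGK3*, a cytosolic phosphoglycerate kinase, had 894, 919 and 888 CPM at 44°C, against 313, 304 and 299.7 CPM at 22°C. *AOX1D*, an alternative oxidase, had 10.8, 8.61 and 9.91 CPM at 44°C, against 0.565, 0.280 and 0.158 CPM at 22°C, and *UPOX*, a mitochondrial stress marker, 20.8, 22.8 and 15.3 CPM at 44°C, against 2.66, 2.24 and 1.11 CPM at 22°C.

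Nutrient lists differed. In nitrogen and sulfur assimilation 3 of 17 rose and 8 fell, near the share of all genes lower (6 and 6 with median-ratio scaling). The sulfate-reducing enzymes *APR2* and *APR1* had 35.4, 43.9 and 39.5 CPM at 44°C, against 292, 319 and 271 CPM at 22°C, and 20.6, 14.7 and 21.9 CPM at 44°C, against 109, 152 and 110.0 CPM at 22°C. *GDH1*, a glutamate dehydrogenase, rose, at 357, 329.9 and 311 CPM at 44°C, against 44.8, 38.1 and 44.9 CPM at 22°C. All but 1 of 10 phosphate starvation genes fell (median −2.67), and 7 stayed lower with median-ratio scaling. *SPX1*, an inhibitor of the phosphate response, had 5.98, 8.02 and 7.57 CPM at 44°C, against 80.4, 99.8 and 60.1 CPM at 22°C, and *MGD3*, a galactolipid synthase, had 0, 0.0836 and 0.0935 CPM at 44°C, against 4.68, 8.88 and 2.29 CPM at 22°C. The exception was the transporter *PHT1.1*, with 34.6 ± 6.42 CPM at 44°C, against 51.7 ± 10.3 CPM at 22°C. Iron and copper genes fell in 10 of 18 (55.6%, against 45.1% of all genes) and rose in 2 (8 and 3 with median-ratio scaling). The root iron transporter *IRT1* had 0.380, 0.585 and 1.03 CPM at 44°C, against 22.3, 39.0 and 36.7 CPM at 22°C, and its regulator *BHLH100* 0.190, 0.167 and 0.374 CPM at 44°C, against 9.60, 19.2 and 8.93 CPM at 22°C, whereas the iron-storing ferritin *FER1* rose, at 510.2, 444 and 414 CPM at 44°C, against 110.3, 80.6 and 83.5 CPM at 22°C. Of 11 root markers, 9 fell (81.8%, against 45.1% of all genes) and 1 rose, *WOX5* (6 and 1 with median-ratio scaling). Their summed share was 0.0353% ± 0.00376 of the counts at 44°C, against 0.467% ± 0.0132 at 22°C. *PYK10*, an abundant root glucosidase, had 325, 249 and 284 CPM at 44°C, against 4188, 4019.8 and 3966 CPM at 22°C. *ESB1*, a root endodermis gene of few reads, was at 0 counts in every 44°C library, against 1.69, 1.26 and 0.316 CPM at 22°C, at least 12.1-fold lower. The part of root RNA in the nutrient results was not tested.

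Phenylpropanoid and flavonoid genes, the source of sunscreens and anthocyanins, fell throughout. All 19 tested of 20 were lower, 17 also with median-ratio scaling, and the list had a median of −5.03. For 6 members no count was left in any 44°C library, and with these at the bound that 3 counts over the group allow the median was −3.22. *CHS*, chalcone synthase and the entry to the pathway, had 0.664, 0.836 and 0.748 CPM at 44°C, against 203, 288 and 226 CPM at 22°C (log2 −8.29 ± 0.21, adjusted p = 4.59e-16). *F3H* and *FLS1*, which lead to flavonols, had 2.18, 2.17 and 1.31 CPM at 44°C, against 60.5, 69.0 and 56.4 CPM at 22°C, and 0.759, 0.752 and 0.374 CPM at 44°C, against 62.3, 84.8 and 66.0 CPM at 22°C. The late anthocyanin genes *DFR* and *LDOX* had no count at 44°C and were at least 36.4-fold and 32.2-fold lower. The early phenylpropanoid genes fell less, with *PAL1* at 53.3, 48.4 and 48.3 CPM at 44°C, against 270.1, 358 and 286 CPM at 22°C and *PAL2* at 96.7, 106 and 95.4 CPM at 44°C, against 289, 336 and 274 CPM at 22°C, the last of which was not called with median-ratio scaling.

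Glucosinolate genes fell almost as uniformly, in 19 of 20 cases (15 with median-ratio scaling, median −3.46). The regulators *MYB28* and *MYB29* of the methionine-derived branch had 1.80, 1.00 and 1.22 CPM at 44°C, against 42.0, 37.2 and 42.0 CPM at 22°C, and 0, 0 and 0 CPM at 44°C, against 7.66, 10.1 and 8.46 CPM at 22°C, the last being at least 96.6-fold lower. *CYP79F1*, an enzyme of that branch, had 0, 0.167 and 0.187 CPM at 44°C, against 35.7, 42.2 and 41.0 CPM at 22°C, and *CYP79B2*, which opens the tryptophan-derived branch, had 2.47, 2.09 and 3.46 CPM at 44°C, against 99.7, 103 and 95.6 CPM at 22°C. *TGG1*, the myrosinase that releases the toxic products, had 557, 707 and 560.1 CPM at 44°C, against 2395, 2585 and 2541 CPM at 22°C. Only *MYB51* did not pass, with 5.13 ± 0.886 CPM at 44°C, against 6.62 ± 1.00 CPM at 22°C. Together the list took 0.0834% ± 0.00944 of the counts at 44°C, against 0.369% ± 0.0174 at 22°C. The glucosinolate transporter *GTR1*, one of the 10 largest falls named for size across all genes, had 0.854, 0.836 and 2.06 CPM at 44°C, against 85.8, 96.6 and 89.6 CPM at 22°C. Guard cell markers fell in 6 of 7 cases under either scaling. Vascular and epidermal markers did not move as groups, with 2 of 4 lower in each (1 and 2 with median-ratio scaling, which gave 1 higher in each), and the epidermal factor *GL2* rose, with 34.2, 28.8 and 28.9 CPM at 44°C, against 12.6, 13.1 and 11.6 CPM at 22°C. The guard cell channel *KAT1* had 0.949, 1.09 and 0.467 CPM at 44°C, against 12.1, 12.8 and 14.9 CPM at 22°C, the phloem transporter *SUC2* 34.8, 30.4 and 32.9 CPM at 44°C, against 132, 132 and 152 CPM at 22°C, and the part of cell-type RNA in the metabolic results was not tested.

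Glutathione transferases, which attach glutathione to reactive compounds, differed in direction from these lists. Of 15 tested, 8 rose and 2 fell (10 and 1 with median-ratio scaling). *GSTU5* had 1114, 1420.3 and 1127 CPM at 44°C, against 182, 221 and 168 CPM at 22°C, and *GSTF2* 543, 607 and 514 CPM at 44°C, against 82.3, 86.9 and 49.6 CPM at 22°C, both above 4-fold. *GSTU20* fell, at 11.1, 11.9 and 7.85 CPM at 44°C, against 103, 123 and 131 CPM at 22°C (log2 −3.53 ± 0.32, adjusted p = 4.85e-06).

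**Figure D3:**
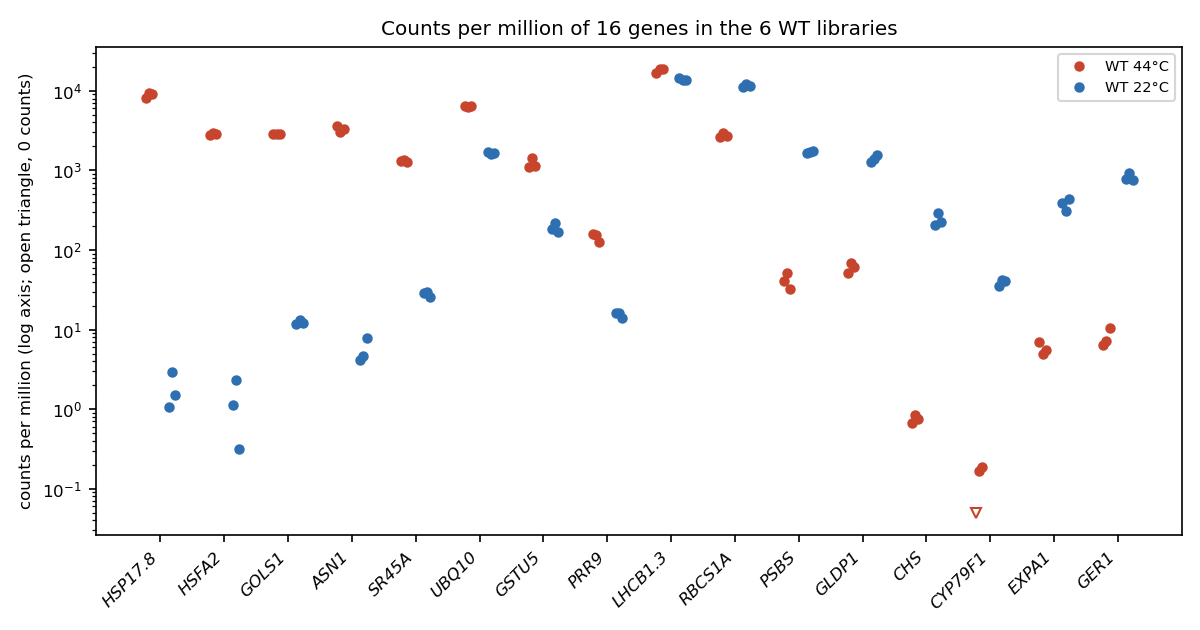
CPM (counts scaled by library totals, log axis) of 16 genes in each WT library, 44°C left of 22°C; an open triangle marks 0 counts. *HSP17.8* lies at 8055 to 9298 CPM at 44°C and 1.05 to 2.94 CPM at 22°C, and *CHS* at 0.664 to 0.836 CPM at 44°C and 203 to 288 CPM at 22°C.

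With library totals, lipid genes fell more often than all genes (71.4% against 45.1%), and cell wall genes lay nearer the share of all genes. With median-ratio scaling, 10 of 21 lipid genes and 7 of 16 cell wall genes were lower, against 24.7% of all genes. Of 21 genes for fatty acids, membrane lipids and wax, 15 fell and none rose (10 and 1 with median-ratio scaling). *FAD8*, a plastid desaturase that makes trienoic fatty acids and is known from cold, had 0.474, 0.836 and 1.496 CPM at 44°C, against 48.3, 54.1 and 55.5 CPM at 22°C, and *KCS1*, an elongase for wax, 9.11, 5.60 and 8.79 CPM at 44°C, against 244, 252 and 164 CPM at 22°C. Of 16 cell wall genes 9 fell (56.25%), and under median-ratio scaling 7 were lower and 1 higher. Those that fell included the wall-loosening expansins *EXPA1*, at 7.02, 4.93 and 5.52 CPM at 44°C, against 391, 312 and 442 CPM at 22°C, and *EXPA8*, at 2.47, 0.836 and 4.11 CPM at 44°C, against 52.4, 42.5 and 55.9 CPM at 22°C. *XTH7*, a wall-remodelling enzyme, and *GER1*, a germin-like protein, were also among the 10 largest falls named for size, at 3.795, 3.34 and 4.58 CPM at 44°C, against 364, 305 and 318 CPM at 22°C, and 6.36, 7.27 and 10.5 CPM at 44°C, against 782, 929 and 768 CPM at 22°C. Tubulin and actin genes were an exception: 3 of 18 rose and 1 fell (7 and 0 with median-ratio scaling), with *TUB4* at 957, 811 and 1044 CPM at 44°C, against 346, 319.8 and 302 CPM at 22°C and *ACT8* at 1061, 806 and 1087 CPM at 44°C, against 439, 358 and 376 CPM at 22°C.

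The cell cycle list fell in 23 of 26 cases and rose in none, and 11 stayed lower with median-ratio scaling. The cyclins *CYCA1.1* and *CYCB1.2* had 0.474, 0.418 and 0.374 CPM at 44°C, against 12.3, 7.20 and 10.4 CPM at 22°C, and 1.33, 1.34 and 2.15 CPM at 44°C, against 13.5, 12.9 and 21.8 CPM at 22°C. The 5 genes listed for the replication helicase all fell, from *MCM5* at log2 −1.21 to *MCM2* at log2 −2.27, but only *MCM2* kept its call with median-ratio scaling. Histone genes fell in 11 of 21 cases (52.4%, against 45.1% of all genes). Under median-ratio scaling 7 were lower and 4 higher. The histone H3 gene *HTR9* had the lowest value, at 5.31, 3.84 and 4.77 CPM at 44°C, against 39.2, 44.0 and 60.0 CPM at 22°C. Of 17 silencing and chromatin genes 6 fell (35.3%, under the share of all genes), and under median-ratio scaling 3 were lower and 3 higher. The DNA methyltransferases *CMT3*, at 1.61, 1.59 and 1.78 CPM at 44°C, against 20.5, 18.9 and 25.8 CPM at 22°C, and *MET1*, at 6.17, 6.10 and 5.52 CPM at 44°C, against 26.1, 32.7 and 37.4 CPM at 22°C, were the lowest of those named. DNA damage genes fell in 9 of 16 (56.25%) and rose in 2 (6 and 3 with median-ratio scaling). *UVR3* and *PHR1* (AT1G12370), both photolyases that repair UV lesions, parted, at 24.5, 26.49 and 23.9 CPM at 44°C, against 6.53, 6.79 and 5.85 CPM at 22°C for *UVR3* and 0.854, 0.668 and 0.748 CPM at 44°C, against 8.71, 6.93 and 10.8 CPM at 22°C for *PHR1*.

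Clock genes moved in both directions. Of 17, 6 rose and 3 fell (9 and 3 with median-ratio scaling). The pseudo-response regulators *PRR9*, *PRR7* and *PRR5* rose together, with *PRR9* at 160.4, 154 and 127 CPM at 44°C, against 15.97, 16.3 and 13.8 CPM at 22°C and *PRR7* at 229, 178 and 193 CPM at 44°C, against 41.5, 48.1 and 37.4 CPM at 22°C. The 2 closely related morning factors were unlike each other: *LHY* fell, at 25.5, 22.0 and 19.1 CPM at 44°C, against 151, 144 and 166 CPM at 22°C (log2 −2.79 ± 0.10), whereas *CCA1* had 268, 263 and 227 CPM at 44°C, against 138, 141 and 147 CPM at 22°C (log2 0.83 ± 0.08), under 2-fold. *ELF4*, an evening complex member, had 1.99, 1.59 and 0.935 CPM at 44°C, against 18.23, 18.7 and 14.7 CPM at 22°C. The time of day at harvest was not stated.

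Hormone lists were mixed, and their shares of lower genes, 27.8% to 52.2%, ranged around the 45.1% of all genes. For abscisic acid, 3 of 18 rose and 5 fell (8 and 3 with median-ratio scaling). The synthesis enzyme *NCED3* had 89.9, 76.6 and 66.7 CPM at 44°C, against 25.8, 24.0 and 22.5 CPM at 22°C, whereas *ABA1*, which acts upstream of it, had 123, 135 and 105 CPM at 44°C, against 696, 695 and 712 CPM at 22°C, and the degrading enzyme *CYP707A1* 3.32, 4.26 and 5.98 CPM at 44°C, against 24.0, 23.0 and 17.39 CPM at 22°C. In the cold and dehydration list 6 of 14 rose and 4 fell (7 and 3 with median-ratio scaling). The cold-response factors *CBF2* and *CBF3* rose, at 53.0, 38.8 and 39.3 CPM at 44°C, against 1.86, 4.06 and 1.11 CPM at 22°C, and 19.9, 17.1 and 17.0 CPM at 44°C, against 1.61, 1.96 and 1.11 CPM at 22°C, while the cold-regulated gene *COR15A*, a known target of this family, fell, at 5.88, 13.0 and 4.39 CPM at 44°C, against 105, 186 and 162 CPM at 22°C.

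Auxin genes fell in 12 of 23 and rose in 2 (8 and 3 with median-ratio scaling). *YUC8* and *TAA1*, consecutive in auxin synthesis, parted, with *YUC8* at 1.61, 0.752 and 1.03 CPM at 44°C, against 9.12, 9.30 and 10.1 CPM at 22°C and *TAA1* at 17.9, 23.2 and 23.2 CPM at 44°C, against 8.63, 6.30 and 7.35 CPM at 22°C. The conjugating enzyme *GH3.5* had 204, 170.0 and 214 CPM at 44°C, against 30.7, 33.3 and 39.4 CPM at 22°C. In the gibberellin and brassinosteroid list 2 of 20 rose, *GA3OX1*, at 9.96, 7.27 and 10.3 CPM at 44°C, against 1.13, 0.630 and 0.632 CPM at 22°C, and *CPD*, at 421, 299 and 382 CPM at 44°C, against 124, 121 and 115 CPM at 22°C, both synthesis enzymes, and 10 fell (4 with median-ratio scaling). Ethylene genes fell in 7 of 21 and rose in 2, whereas with median-ratio scaling 1 was lower and 7 higher, with the synthase *ACS7* at 11.1, 12.4 and 11.1 CPM at 44°C, against 1.13, 0.630 and 0.632 CPM at 22°C and the signal transducer *EIN2* at 34.3, 31.9 and 33.1 CPM at 44°C, against 150.2, 144 and 134 CPM at 22°C. Jasmonate genes did not rise in any of 25 cases and fell in 12 (3 higher and 8 lower with median-ratio scaling), the vegetative storage genes *VSP2* and *VSP1* with 0.569, 0.334 and 0.187 CPM at 44°C, against 14.4, 30.6 and 23.0 CPM at 22°C, and 1.23, 1.34 and 0.935 CPM at 44°C, against 11.8, 20.22 and 11.2 CPM at 22°C. Without 22°C replicate 2, 1 jasmonate gene was higher.

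Immune genes lay close to the shares of all genes. Of 24 salicylic acid and immunity genes 10 fell (41.7%) and 1 rose (4.17%), against 45.1% and 7.62% of all genes (5 and 4 with median-ratio scaling). *PAD4*, a lipase-like immune regulator, had 1.99, 3.26 and 2.62 CPM at 44°C, against 13.6, 13.6 and 15.5 CPM at 22°C. *PR2* had 0, 0 and 0.0935 CPM at 44°C, against 1.29, 21.8 and 2.06 CPM at 22°C, most of it in 22°C replicate 2, and without 44°C replicate 3, which held its only count at 44°C, its call was lost (adjusted p = 0.0535) though its fitted log2 was no smaller, at −10.04 against −7.80. *MPK6*, a stress kinase, rose just past 2-fold, at 84.9, 82.1 and 88.1 CPM at 44°C, against 43.1, 41.9 and 41.3 CPM at 22°C, and dropped below it without 44°C replicate 3. WRKY factors were split, with 3 of 18 higher and 5 lower (8 and 3 with median-ratio scaling), and *WRKY26* rose, at 23.2, 21.9 and 21.6 CPM at 44°C, against 2.74, 4.34 and 2.77 CPM at 22°C.

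Stress transcription factors of the NAC, ZAT and AP2 families were unlike the immune lists: 11 of 16 rose and none fell (14 with median-ratio scaling). The zinc-finger gene *ZAT7* had 5.79, 7.35 and 8.97 CPM at 44°C, against 0.161, 0.560 and 0.395 CPM at 22°C, and the list took 0.199% ± 0.00744 of the counts at 44°C, against 0.0255% ± 0.00434 at 22°C. Of 9 calcium signalling genes 2 rose and 3 fell, whereas with median-ratio scaling 3 were higher and 1 lower, with the calmodulin-like *CML37* at 14.1, 17.3 and 19.4 CPM at 44°C, against 0.161, 0.350 and 0.474 CPM at 22°C and the channel *CNGC4* at 12.8, 7.77 and 12.5 CPM at 44°C, against 54.6, 59.7 and 47.0 CPM at 22°C. Hypoxia genes gave 1 rise, of *HRE2*, whose groups overlapped and whose call was lost without 44°C replicate 2 or 3 and without 22°C replicate 1 or 2, and 4 falls in 9 (44.4%, against 45.1% of all genes), of which *PCO2* also overlapped. With median-ratio scaling 2 were higher and 2 lower. Aquaporins and proton pumps fell in 9 of 22 (40.9%, near the share of all genes), and under median-ratio scaling 3 were lower and 3 higher. *TIP2.2* had 49.2, 50.2 and 50.3 CPM at 44°C, against 335, 356 and 258 CPM at 22°C, and the 1 riser, *PIP2.3*, 259.5, 246 and 219.9 CPM at 44°C, against 70.1, 83.4 and 60.1 CPM at 22°C.

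Whole families, taken from the product names of the annotation, gave a wider view. Receptor-like kinases fell in 128 of 169 cases (75.7%, against 45.1% of all genes) and rose in 3. Pentatricopeptide repeat proteins, which process organelle RNA, fell in 71.1% of 239, peroxidases in 69.3% of 75 and cytochrome P450 genes in 67.0% of 188. With median-ratio scaling these 4 families still had 84, 98, 41 and 93 members lower, against 11, 14, 5 and 18 higher. Of all genes, 24.7% were lower and 18.8% higher by that scaling. ERF and DREB factors had the highest share of rises among the 22 families, 15 of 69 (21.7%, against 7.62% of all genes), with 22 lower (24 higher and 14 lower with median-ratio scaling). DNAJ proteins, F-box proteins and RING or U-box ubiquitin ligases had medians of −0.73, −0.83 and −0.84, against −0.91 for all genes. With median-ratio scaling 26 of 119, 38 of 197 and 59 of 300 were higher and 24, 37 and 62 lower, beside 18.8% and 24.7% of all genes.

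Gene class separated the response further. Of 50 small nucleolar RNA genes, which act in rRNA modification and processing, 31 were higher (62.0%, against 7.62% of all genes) and none lower. Of 28 spliceosomal small nuclear RNA genes, 17 were higher (60.7%) and none lower. With median-ratio scaling 42 and 27 were higher, beside 18.8% of all genes. The spliceosomal gene *U4.2* had 368, 298 and 303 CPM at 44°C, against 149.9, 99.1 and 115 CPM at 22°C, and the U3-type gene *U3D* 90.42, 79.3 and 71.7 CPM at 44°C, against 29.9, 15.5 and 20.3 CPM at 22°C. *U1.7* had 933, 892 and 679 CPM at 44°C, against 654, 222 and 277 CPM at 22°C, with 22°C replicate 1 close to the 44°C libraries, and *U1.6* had the same values in every 44°C library, so reads of U1 copies are not separated. Of the small nucleolar RNA genes 32 overlap another annotated gene, and of the small nuclear RNA genes 16 do, 9 of them on the opposite strand, and reads from overlapping genes cannot be told apart. The labels name polyA RNA and the study's methods rRNA depletion, and the part of RNA selection in the levels of these classes was not tested.

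Genes whose sequence also lies in the mitochondrial genome behaved in a like manner. Of 128 such genes, 126 on chromosome 2, 113 were tested, 70 rose and none fell (104 and 0 with median-ratio scaling), and they took 6.77%, 6.90% and 7.59% of the counts at 44°C, against 4.03%, 3.94% and 4.17% at 22°C. The gene with most counts in both groups, AT2G07732, is one of them, at 31056, 33744 and 36381 CPM at 44°C, against 22745, 23253 and 24901 CPM at 22°C. Reads from mitochondrial RNA and from these nuclear copies cannot be told apart, so the nuclear genes themselves are not shown to rise.

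**Figure D4:**
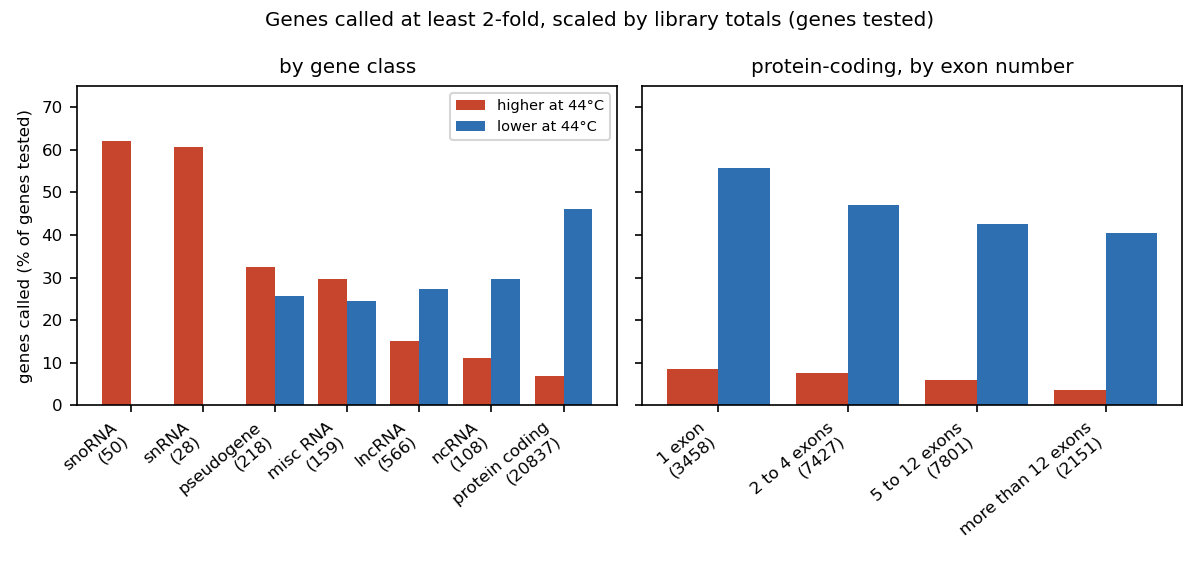
Share of tested genes called at least 2-fold higher or lower at 44°C than at 22°C (library totals), by annotated gene class at left and by exon number of protein-coding genes at right, with the number tested in brackets. Small nucleolar RNA genes were higher in 62.0% of cases, and protein-coding genes with 1 exon were lower in 55.8%.

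Among protein-coding genes the fall was deeper for those with few exons. Genes with 1 exon had a median of −1.40 and 55.8% lower, against −0.77 and 40.5% for genes with more than 12 exons. With median-ratio scaling the medians were −0.59 and 0.04. With library totals, rises were also less frequent in many-exon genes, 3.58% against 8.47%. Under median-ratio scaling 323 of 2151 genes with more than 12 exons were higher, against 573 of 3458 with 1 exon. Of genes with 2 to 4 exons, 1380 of 7427 were higher by that scaling, and of those with 5 to 12, 1447 of 7801. Genes with more than 12 exons thus had the smallest share of rises under either scaling, whereas the order of the other classes depended on the scaling. By total exon length, the shortest quartile had a median of −0.76 and the longest −1.06. The 5 chromosomes had medians between −0.96 and −0.92.

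Some genes were near silent at 22°C. Of 233 tested genes with under 3 counts in every 22°C library, the 5 with most counts at 44°C were *HSP23.6*, given above, AT1G09715, *APX2*, AT1G48710 and AT5G03975. The ascorbate peroxidase gene *APX2* had 36.4, 38.9 and 33.5 CPM at 44°C, against 0.0807, 0 and 0 CPM at 22°C. AT1G48710, annotated only as a pseudogene, had 27.6, 46.0 and 28.4 CPM at 44°C, against 0, 0 and 0 CPM at 22°C, at least 446-fold higher. AT5G03975, a noncoding RNA noted in the annotation as antisense to AT5G25450, had 25.8, 36.4 and 30.3 CPM at 44°C, against 0, 0 and 0 CPM at 22°C, at least 404-fold higher, and since the strand setting of the counting was not stated, its reads and those of AT5G25450, which rose to a mean of 258 CPM at 44°C, against 1.62 CPM at 22°C, cannot be told apart. AT1G09715, a noncoding RNA of no annotated role, had 48.1, 27.2 and 43.0 CPM at 44°C, against 0.161, 0 and 0.158 CPM at 22°C. A rise without such silence came from AT5G54165, annotated as an Avr9/Cf-9 rapidly elicited protein, at 681, 1006 and 918 CPM at 44°C, against 2.18, 1.05 and 0.474 CPM at 22°C.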

How the data were processed

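RNA of 6 WT seedling libraries was compared. The 6 *cry1* libraries entered the estimate of spread and the test of genotype differences. They also entered the median-ratio and TMM scaling factors, the DESeq2 fit and an alternative filter. The deposited table holds estimated counts per gene, which the authors made with RSEM on TAIR10 after trimming; the processing notes also name TopHat2 2.0.11. Estimated counts were rounded to whole numbers and tested with edgeR 4.0.16 (quasi-likelihood test, a term per group, R 4.3.3) on library totals. Tested genes had a mean FPKM above 2 to the power −5 in 1 WT group or both and at least 10 counts over the WT libraries. A gene was called where it differed by at least 2-fold and its p, adjusted after Benjamini and Hochberg over all genes tested, lay below 0.05. All sample columns were mapped to labelled samples.

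Alternatives were median-ratio and TMM scaling, DESeq2 1.42.0, limma 3.58.1 on log2(FPKM + 0.1), other filters, a replicate block and leaving out each library. Replicates differed by more than sampling noise (chi-square per degree of freedom 5.03 to 6.57), and the median coefficient of variation was 8.72% at 44°C and 7.15% at 22°C. Counting intervals and floors (3 counts over a group) cover counting error only. A simulation gave every group the WT 22°C means and a fixed spread, and changed 100 well-counted genes 2-fold and 100 genes 4-fold at 44°C. At an adjusted p under 0.05, with no fold limit, the test found 83% of 2-fold and 100% of 4-fold changes. It called 6 unchanged genes, with 21975 genes in all. Most genes were unchanged there, unlike in these data, so the simulation covers neither the choice of scaling nor the calls with the fold limit.

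The 57 lists and the members were chosen with earlier results of these data known, so their counts are descriptions. Named genes were the 10 largest rises and falls with at least 20 CPM in the higher group and 1 CPM in the lower, the 5 most abundant at 44°C among those under 3 counts in each 22°C library, the 10 most abundant per group, up to 2 rising and 2 falling members per list, *CRY1* and *HSP101*. Other genes in the text, such as *F3H*, *PAL1*, *DFR*, *CYP79B2*, *TGG1*, *SPX1*, *CCA1* and *U4.2*, were chosen after their values were seen. Names, gene classes and promoter sequences came from RefSeq's TAIR10.1, and gene coordinates were not taken from the count table. Genes matching the mitochondrial genome had at least 50% of their 50-base words in it. The list of RNA decay genes is not reported here.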

Additional observations from a re-analysis of the deposited data

Results flagged for a closer look

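Of the 188 genes named for the WT heat response, 24 had a heat response in *cry1* seedlings that differed from that in WT by at least 1 on the log2 scale, at an adjusted p under 0.05 for the interaction term in edgeR's quasi-likelihood test, and over all genes tested 1702 did so. The values below are log2 of 44°C over 22°C in *cry1*, then in WT, and then the difference, *cry1* response minus WT response. Such a difference can lie in the level at 22°C, in the level at 44°C or in both. In the alternative oxidase gene *AOX1D* the response was −0.43 in *cry1* and 4.85 in WT, a difference of −5.27 (adjusted p = 4.66e-06). Its mean at 44°C was 0.645 CPM in *cry1* and 9.78 CPM in WT, against 0.860 and 0.334 CPM at 22°C. *UPOX*, the mitochondrial stress gene, had 0.83 in *cry1* and 3.29 in WT, a difference of −2.45 (adjusted p = 2.59e-05). In the WRKY factor *WRKY40* the response was −2.32 in *cry1* and 1.55 in WT, a difference of −3.87 (adjusted p = 1.73e-04). *ZAT7*, the zinc-finger gene, had 1.87 in *cry1* and 4.25 in WT, a difference of −2.38 (adjusted p = 1.12e-02). In the nitrate reductase gene *NIA1* the response was −0.63 in *cry1* and 1.26 in WT, a difference of −1.88 (adjusted p = 1.21e-05). *COR15A*, the cold-regulated gene, had −0.46 in *cry1* and −4.26 in WT, a difference of 3.8 (adjusted p = 1.18e-03). In the glycine decarboxylase gene *GLDP1* the response was −2.78 in *cry1* and −4.54 in WT, a difference of 1.76 (adjusted p = 1.05e-05). *GBSS1*, the starch synthase gene, had −1.58 in *cry1* and −3.52 in WT, a difference of 1.94 (adjusted p = 4.62e-08). In the chalcone synthase gene *CHS* the response was −5.87 in *cry1* and −8.29 in WT, a difference of 2.43 (adjusted p = 8.08e-04). Its mean at 44°C was 0.891 CPM in *cry1* and 0.749 CPM in WT, against 53.0 and 239 CPM at 22°C, so the genotypes differed mainly at 22°C. *BAM1*, the beta-amylase gene, had 3.797 in *cry1* and 2.54 in WT, a difference of 1.26 (adjusted p = 1.91e-06). *CRY1*, the gene mutated in *cry1*, had −4.64 and −0.38, a difference of −4.27 (adjusted p = 6.13e-03), with a mean of 0 CPM in *cry1* at 44°C and 0.199 CPM in *cry1* at 22°C. Since *cry1* had no *CRY1* count at 44°C, its fitted response and the difference depend on the fit and do not measure a size.

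The difference was positive for *XTH7* (1.07), *AT2G25510* (1.99), *SEN1* (1.03), *PRR9* (1.22), *LHY* (1.13), *ABA1* (1.52) and *KAT1* (1.04). It was negative for *HSP15.4* (−1.09), *BRX1-1* (−1.44), *FIB2* (−1.57), *GSTF2* (−1.50), *CAF1A* (−1.15) and *TCH3* (−1.51). Among these, the clock genes *PRR9* and *LHY* moved in opposite directions with heat in WT, and both differences were positive. *SEN1* had a mean of 4077 CPM in *cry1* and 4332 CPM in WT at 44°C, against 29.9 and 64.6 CPM at 22°C. The causes were not tested.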

How the results depend on the processing

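Scaling set the counts. Library totals gave 1675 higher and 9909 lower genes. Median-ratio scaling gave 4136 higher and 5422 lower, TMM scaling 4092 and 5473, and DESeq2 4139 and 5362. All 1675 higher genes stayed higher under median-ratio and TMM scaling. These placed the median gene at −0.10 and −0.11, against −0.91 with library totals. Rises could thus hardly be lost under them, and were not tested by them. Without a fold limit 3403 genes were higher. Lists with more members higher than lower numbered 15 with library totals and 28 with median-ratio scaling, and lists with more lower numbered 22 with median-ratio scaling. *PSBR* turned to 0.46, 0.45 and 0.46 and *CRY1* to 0.43, 0.42 and 0.43 under median-ratio scaling, TMM scaling and DESeq2. Of the 188 named genes, 27 lost and 4 gained a call under median-ratio scaling. The counts of higher and lower genes stayed within 1.5 times under limma on log2(FPKM + 0.1), under the other filters and with the WT libraries alone.

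Leaving out 1 library gave 1596 to 1695 higher and 9604 to 9927 lower genes, 15 lists with more members higher and 39 to 40 with more lower. The seed storage gene *CRA1* lost its call without each library but 44°C replicate 1 (adjusted p of 0.0565 to 0.137), and 1 co-chaperone gene was lower without 44°C replicate 2 or 3 or 22°C replicate 2. With the replicate number as a replicate block, 1634 genes were higher and 9714 lower. Libraries sharing a number did not deviate together (r of −0.0006, −0.0071 and −0.0276 across genes), so no pairing by number was detected. Samples paired without a strong shared effect would look the same. Depth limits genes of few reads: 3 counts over a group correspond to 0.0903 CPM at 44°C and 0.0763 CPM at 22°C.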
